A study of Mus musculus with 24 samples.

Results

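Hearts of mice with access to wheel running for 8 weeks were set beside hearts of sedentary mice. These are 8 of the 24 heart libraries of the series, taken by their labels as 4 running libraries (Running 1 to 4) and 4 sedentary libraries (Sedentary 1 to 4). All mice belong to the strain C57BL/6, and the labels name no mutation, transgene or drug in either group. The other 16 libraries enter only where they are named: they come from hearts 2 and 8 weeks after transverse aortic constriction (TAC), an operation that narrows the aorta and puts a pressure load on the left ventricle, and from a sham-operated group beside each. The labels do not give age, sex, running distance, heart weight or time of day at collection, nor whether a library is a single animal, so the p-values below measure the spread between these libraries. Endurance exercise of this kind is used to study physiological growth of the heart, and the comparison asks which cardiac transcripts differ after it.

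The libraries were made from total RNA depleted of ribosomal RNA, and a value is given as CPM, the estimated counts of a gene per 1000000 counts of its library after TMM scaling over the 8 libraries. Markers of the heart were present in every library: Myh6, the main myosin heavy chain of the adult mouse ventricle, lay between 9220 and 11100 CPM, Tnnt2, cardiac troponin T, between 930 and 1050 CPM, and Ryr2, the calcium release channel, between 1570 and 1960 CPM. Total counts ranged from 16802939 to 39512101, and mitochondrially encoded genes took 62.1% to 73.6% of them. Neither measure separated the groups (exact two-sided permutation p = 0.914 and 0.571, adjusted p = 0.971 for each over 10 tests). The first principal component, with 30.5% of the variance, split libraries within each group: Sedentary 1, Running 1 and Running 4 had scores of 15.0 to 31.5, while Sedentary 2, Sedentary 3 and Running 2 had scores of -21.7 to -18.6. On the second component, with 18% of the variance, Running 1 to 3 lay at -18.8 to -17.1, the sedentary libraries at 5.12 to 14.2 and Running 4 beyond them at 16.9.

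Growth of the heart in exercise is textbook biology of the insulin-like growth factor receptor, phosphoinositide 3-kinase (PI3K) and the kinase Akt, and differs from growth under pressure overload, in which fetal genes and matrix genes are re-expressed. In heart muscle cells, as in most cells, a circadian clock also runs: the protein BMAL1 (gene Arntl) pairs with CLOCK or NPAS2, binds E-box sequences and drives genes such as Per3, Nr1d2, Dbp, Tef and Ciart, several of which act back on the pair. Levels of these genes swing over the day in the heart.

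No gene was called as different between running and sedentary hearts. Of 13824 genes tested with edgeR's quasi-likelihood test, 0 had a Benjamini-Hochberg adjusted p under 0.05, which is 0% of those tested, and the smallest adjusted p was 0.126. At an unadjusted p under 0.05 there were 311 genes higher in running hearts (2.25%) and 354 lower (2.56%). Together these 665 genes lie near the share of 0.05 expected with no difference. DESeq2 called 9 genes and limma-voom 0.

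The differences were small for most genes. The median size of the log2 fold change, running over sedentary, was 0.11 and the median signed value was 0.01. Estimates reached 1.5-fold in 170 genes in the direction of running and in 168 in the other, and 2-fold in 27 and 23. For 9198 genes (66.5%) the whole 95% confidence interval of the fold change lay within 1.5-fold in either direction, and for 12519 genes (90.6%) within 2-fold. The median half-width of the interval was 0.32 on the log2 scale, 0.23 at a mean of at least 10 CPM and 0.72 below 1 CPM, so the bound on a difference is loose for weakly expressed genes.

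**Figure D1:**
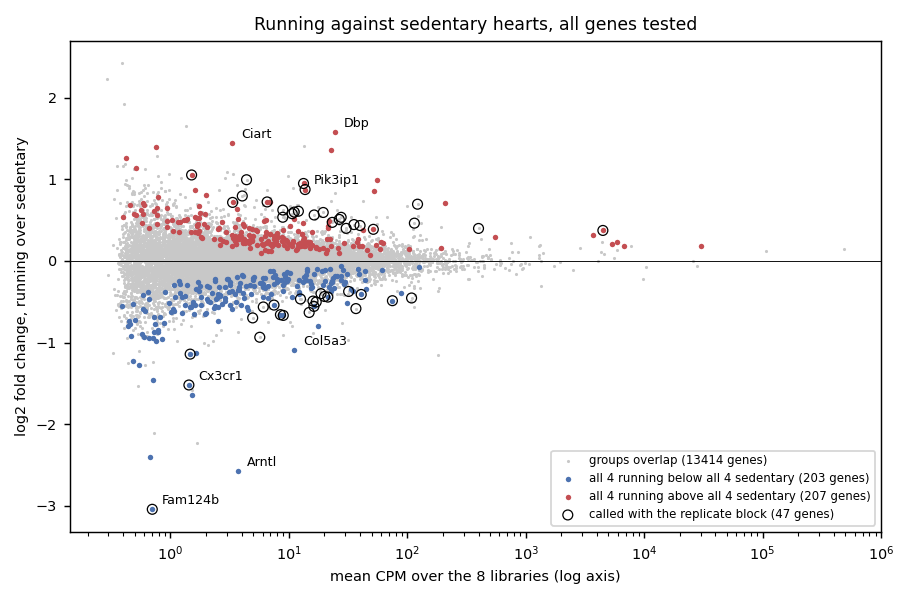
Each point is 1 of 13824 genes, with its mean CPM over the 8 libraries on a log axis and its log2 fold change, running over sedentary. Coloured points are the 207 genes with all 4 running libraries above all 4 sedentary ones and the 203 with all below, and circles mark the 47 genes called in the fit with the replicate number as a block.

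The groups were also compared by whether their libraries overlapped. All 4 running libraries lay above all 4 sedentary libraries in 207 genes (1.5%) and below them in 203 genes (1.47%), 410 in all. Of the 70 arrangements of 4 against 4 libraries, a share of 0.0286 separates the groups fully in either direction. The 410 genes are 2.97% of those tested, near the share expected with no difference. Lack of overlap in a single gene is therefore a description only. Among the genes with 2-fold differences, 7 of 27 on the higher side and 11 of 23 on the lower side had groups that did not overlap. Genes that code for proteins held 195 of the 207 and 188 of the 203, beside 12389 of all 13824 genes tested.

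Pik3ip1 had the smallest p of all genes. It encodes a transmembrane protein that binds PI3K and holds its activity down. Its level was 10.4, 10.9, 8.44 and 8.89 CPM in Sedentary 1 to 4 and 21.0, 18.1, 17.5 and 14.6 CPM in Running 1 to 4. Every running library lay above every sedentary library. The log2 fold change was 0.87 (SE 0.12, 95% interval 0.60 to 1.143) with an edgeR adjusted p of 0.126, and left-out libraries moved it only between 0.79 and 0.96. It passed the threshold in DESeq2 (adjusted p = 2.54e-05), and without Running 4 in edgeR (adjusted p = 0.0232). With any other library left out the edgeR adjusted p was 0.133 to 0.89. Libraries numbered 1 to 4 and 5 to 8 in the labels, each set with 2 running and 2 sedentary hearts, gave 0.87 and 0.89. The strand setting of the counting is not given in the sources used here, and Pik3ip1, Tnfaip2, Dyrk2, Cx3cr1, Dbp, Tef, Arntl, Adamts4, Cebpb, Nppa and Myh7 each overlap a gene on the other strand in the annotation, as do others described here such as Thra (whose partner is Nr1d1), Fbn1, Dchs2, Dusp5, Jund, Pfkp and Timp3, so reads of these partners cannot be told apart.

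The PI3K and growth list, to which Pik3ip1 belongs, had a median close to 0. Of its 27 tested members 3, Pik3ip1 among them, were at an unadjusted p under 0.05 on the higher side, against 2.25% of all genes, and 2 on the lower side, against 2.56%. The median log2 fold change of the list was 0.04, and -0.04 with library totals in place of TMM factors. Eif4ebp1, the translation repressor that mTOR switches off, had 7.41 to 8.43 CPM in sedentary and 7.73 to 11.3 CPM in running hearts (log2 fold change 0.33, SE 0.12). Erbb4, the neuregulin receptor of heart muscle, had a log2 fold change of 0.32 (SE 0.12), and Igfbp5, a binding protein of insulin-like growth factors, one of -0.28 (SE 0.10), and the groups overlapped in each. Igf1, the growth factor itself, was at 8.34 to 10.4 CPM in sedentary and 9.15 to 13.4 CPM in running hearts (0.17, 95% interval -0.11 to 0.45).

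Among the targets of FoxO, the transcription factors that Akt keeps out of the nucleus, 3 of 20 tested genes were at an unadjusted p under 0.05 on the higher side, against 2.25% of all genes, and 0 on the lower. The list median was 0.13, and 0.06 without Running 1. Foxo3 itself was at 54.8, 39.1, 38.0 and 47.5 CPM in Sedentary 1 to 4 and at 66.0, 55.9, 55.6 and 57.2 CPM in Running 1 to 4, with no overlap (log2 fold change 0.39, SE 0.12). Fbxo32, the ubiquitin ligase atrogin-1 of muscle protein breakdown, was at 41.0 to 71.3 CPM in sedentary and 56.5 to 102 CPM in running hearts (0.53, SE 0.20). Sesn1, a sestrin that restrains mTOR, had a log2 fold change of 0.44 (SE 0.17). The smallest edgeR adjusted p among these was 0.924.

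The next genes by p were the noncoding RNA Gdap10, Tnfaip2, Dyrk2, Fam124b and Cx3cr1. Gdap10 was at 11.7, 6.47, 9.33 and 8.73 CPM in Sedentary 1 to 4 and at 18.4, 16.5, 21.1 and 14.3 CPM in Running 1 to 4 (log2 fold change 0.95, SE 0.17, edgeR adjusted p = 0.558, DESeq2 adjusted p = 0.00128). Tnfaip2, a gene induced by tumour necrosis factor, was at 19.6, 20.8, 19.3 and 17.9 CPM in sedentary and 13.5, 13.7, 11.5 and 14.1 CPM in running hearts (-0.56, SE 0.10, edgeR adjusted p = 0.386, DESeq2 adjusted p = 0.00406). Gdap10 and Tnfaip2, like Dyrk2, Fam124b and Cx3cr1, were taken for their small p, and in each the groups did not overlap. Dyrk2, a protein kinase, was at 8.29 to 9.47 CPM in sedentary and 5.41 to 6.44 CPM in running hearts (-0.54, SE 0.11). Fam124b rests on few counts: 30, 24, 48 and 12 in Sedentary 1 to 4 and 6, 1, 2 and 5 in Running 1 to 4 (log2 fold change -3.04, SE 0.59, edgeR adjusted p = 0.558).

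**Figure D2:**
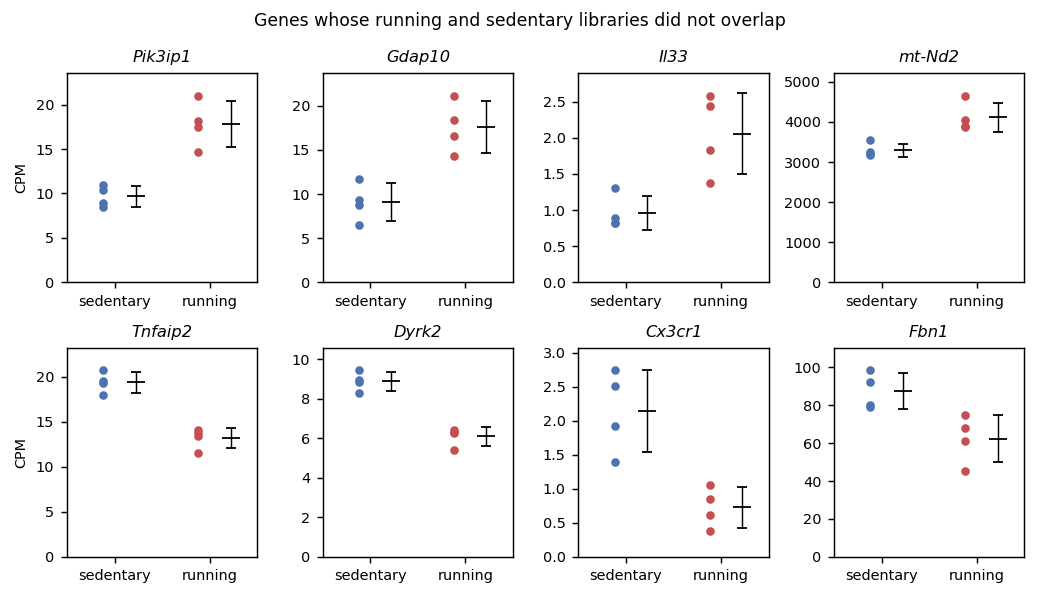
CPM (linear axis from 0) of 8 genes in each sedentary (blue) and running (red) library, with the mean and SD of the 4 libraries beside the points. In each panel the 2 groups do not overlap, as for Pik3ip1 with 8.44 to 10.9 CPM in sedentary and 14.6 to 21.0 CPM in running hearts.

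Beyond these, the largest differences with no overlap and a mean of at least 2 CPM were, on the higher side, the clock genes Dbp, Ciart, Per3, Tef and Nr1d2 with Gdap10, Pik3ip1 and Gm14327, and on the lower side Arntl, Col5a3, Slc41a3, Arl4c, Unc119b, Ckap4, Mmp14 and Rel. Clock genes thus held 5 of the 8 places on the higher side and the first on the lower side. Cdh19, a cadherin, was at 2.04 to 2.85 CPM in sedentary and 3.51 to 4.98 CPM in running hearts (log2 fold change 0.72, SE 0.16). Prps2, an enzyme that makes the ribose precursor of nucleotides, was at 4.67 to 5.53 and 6.58 to 7.92 CPM (0.49, SE 0.11). Slc41a3, a magnesium transporter, was at 17.7 to 26.8 CPM in sedentary and 8.60 to 17.0 CPM in running hearts (-0.79, SE 0.22), and Rel, a subunit of NF-kappaB, at 3.75 to 4.46 and 2.01 to 3.42 CPM (-0.59, SE 0.17). Unc119b, which carries lipid-modified proteins, and Ckap4, a membrane protein of the endoplasmic reticulum, had log2 fold changes of -0.67 (SE 0.15) and -0.66 (SE 0.15).

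Of the gene lists described, the genes driven by the circadian clock had the largest median difference. All 12 tested genes that BMAL1 drives had positive log2 fold changes with a median of 1.00, while the median of all genes was 0.01. Unadjusted p was under 0.05 in 8 of the 12, against 2.25% of all genes, and 5 had groups that did not overlap, against 1.5%. With library totals in place of TMM factors the median was 0.98, and with a library left out it lay between 0.80 and 1.2. None of the 12 was called by edgeR, whose adjusted p was 0.858 or above, while DESeq2 called Tef (adjusted p = 0.00753) and Ciart (adjusted p = 0.0301).

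Dbp, a transcription factor whose level follows the clock, was at 20.8, 9.54, 3.63 and 15.0 CPM in Sedentary 1 to 4 and at 23.4, 46.9, 43.2 and 33.9 CPM in Running 1 to 4 (log2 fold change 1.57, SE 0.50). Its relative Tef was at 51.7, 27.2, 26.4 and 44.3 CPM in sedentary and 70.1, 79.1, 91.0 and 57.2 CPM in running hearts (0.99, SE 0.24). Ciart, a repressor of the BMAL1 pair, was at 2.88, 0.809, 0.881 and 2.42 CPM and at 3.90, 6.15, 5.52 and 3.84 CPM (1.44, SE 0.38). In all 3 genes Sedentary 2 and 3 were the lowest, Sedentary 1 and 4 lay nearer to the running libraries, and the groups did not overlap. Per3, a period protein, had 7.15 to 19.5 CPM in sedentary and 22.9 to 42.0 CPM in running hearts (1.36, SE 0.35), and Nr1d2, the nuclear receptor REV-ERB beta, 22.6 to 54.1 and 60.9 to 71.6 CPM (0.86, SE 0.24).

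Members whose groups overlapped were Hlf, another factor of the Dbp family, with a log2 fold change of 1.04 (SE 0.34), Per1 with 1.01 (SE 0.62), Per2 with 1.41 (SE 0.73) and Nr1d1, which encodes REV-ERB alpha, with 0.15 (SE 0.34). Per2 was at 15.4, 1.41, 2.12 and 9.50 CPM in Sedentary 1 to 4 and at 12.1 to 27.8 CPM in running hearts, so the sedentary hearts spread more widely among themselves. Per1 also varied within the groups, from 4.90 to 26.4 CPM in sedentary and from 17.0 to 41.3 CPM in running hearts.

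Genes of the activating side of the clock mostly lay lower in running hearts. Arntl was at 3.63, 7.58, 9.84 and 4.17 CPM in Sedentary 1 to 4 and at 0.799, 0.742, 0.323 and 2.51 CPM in Running 1 to 4, from 574 counts in all 4 sedentary and 100 in all 4 running libraries (log2 fold change -2.57, SE 0.60, edgeR adjusted p = 0.858). Npas2, which can stand in for CLOCK, was at 1.54, 3.70, 2.75 and 1.26 CPM and at 0.892, 0.566, 0.466 and 1.09 CPM (-1.64, SE 0.38, edgeR adjusted p = 0.719, DESeq2 adjusted p = 0.0301). In these 2 genes the groups did not overlap, and Sedentary 2 and 3, lowest for Dbp, were the highest. Clock had 27.7 to 32.9 CPM in sedentary and 21.0 to 28 CPM in running hearts (-0.41, SE 0.11), and Nfil3, a repressor that competes with Dbp, 3.73 to 6.37 and 1.84 to 4.27 CPM (-0.87, SE 0.27). The cryptochrome gene Cry2, listed with them, went the other way (0.50, SE 0.18). Of the 8 listed genes 2 had an unadjusted p under 0.05 on the higher side (background 2.25%) and 4 on the lower side (background 2.56%), and the median was -0.31.

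The windows around the start sites of 4 of these genes are shown because they differ in the clock motifs they hold. They run from 250 bases before to 50 bases after a RefSeq start site in the build GRCm38.p6, 5′ to 3′ on the strand of the gene, and 17 of the 20 listed clock genes have an entry. Capitals mark the E-box CACGTG, the D-box TTATGTAA or its reverse complement TTACATAA (bound by Dbp, Tef, Hlf and Nfil3), and the core of the element of the ROR and REV-ERB receptors, TAGGTCA or TGGGTCA or their reverse complements TGACCTA and TGACCCA. No word searched overlapped another in these windows.
Ciart, chr3:95882179-95882478, minus strand: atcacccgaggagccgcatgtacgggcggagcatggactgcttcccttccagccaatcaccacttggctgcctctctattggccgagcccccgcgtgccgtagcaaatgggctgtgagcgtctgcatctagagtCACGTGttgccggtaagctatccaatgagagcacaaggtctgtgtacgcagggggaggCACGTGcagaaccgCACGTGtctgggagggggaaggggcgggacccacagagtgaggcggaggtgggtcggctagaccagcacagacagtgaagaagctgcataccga
Tef, chr15:81811164-81811463, plus strand: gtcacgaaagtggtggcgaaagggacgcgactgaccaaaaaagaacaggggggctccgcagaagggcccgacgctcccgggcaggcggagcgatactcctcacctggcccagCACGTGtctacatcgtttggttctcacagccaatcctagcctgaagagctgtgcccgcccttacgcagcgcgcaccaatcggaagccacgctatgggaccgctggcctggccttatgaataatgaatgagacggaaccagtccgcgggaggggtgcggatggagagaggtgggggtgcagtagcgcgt
Per3, chr4:151044616-151044915, minus strand: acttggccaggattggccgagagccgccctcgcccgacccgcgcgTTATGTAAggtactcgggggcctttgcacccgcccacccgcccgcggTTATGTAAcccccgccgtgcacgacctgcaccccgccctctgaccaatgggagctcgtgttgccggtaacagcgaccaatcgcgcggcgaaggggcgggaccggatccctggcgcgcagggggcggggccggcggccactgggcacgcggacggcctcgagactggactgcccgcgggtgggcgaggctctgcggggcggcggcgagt
Arntl, chr7:113207261-113207560, plus strand: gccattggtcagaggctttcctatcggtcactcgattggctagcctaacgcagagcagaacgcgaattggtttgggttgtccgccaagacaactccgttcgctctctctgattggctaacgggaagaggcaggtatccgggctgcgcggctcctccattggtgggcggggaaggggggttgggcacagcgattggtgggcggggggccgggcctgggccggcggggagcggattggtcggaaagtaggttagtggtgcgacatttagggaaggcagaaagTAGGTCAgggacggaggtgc
Ciart held 3 E-boxes and Tef 1, Per3 held 2 D-boxes and no E-box, and Arntl held 1 receptor element just after this start site. Another Arntl window, chr7:113207215-113207514, held none of these words. Of all 32851 windows of this length 7.15% held the E-box, 0.938% a D-box and 6.45% the receptor element. Among the BMAL1-driven genes with an entry, 4 of 10 held an E-box in at least 1 of their windows, a count per gene rather than per window. Dbp, Nr1d2 and Npas2 held none of these words, which says only that the letters are not in this window. A match is a description of the sequence and was not tested for binding.

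The same genes varied between the other control groups of the series. On a scale set over all 24 libraries, Arntl was at 4.00 to 10.7 CPM in sedentary and 0.359 to 2.76 CPM in running hearts, at 0.221 to 1.49 CPM in the sham group of 2-week TAC and at 4.15 to 12.2 CPM in the sham group of 8-week TAC. Dbp was at 3.95 to 22.8 CPM in sedentary, 25.8 to 52.4 CPM in running, 30.6 to 34.5 CPM in the first sham group and 2.76 to 21.8 CPM in the second. Between the 2 sham groups 7 of the 12 BMAL1-driven genes and 4 of the 8 on the activating list did not overlap, in the directions seen between running and sedentary hearts. Pik3ip1 lay at 18.5 to 22.4 CPM in the first sham group and 6.77 to 16.6 CPM in the second, beside 16.0 to 23.1 CPM in running and 9.20 to 12.0 CPM in sedentary hearts. These members of the clock lists and Pik3ip1 therefore lay apart between 2 control groups that are not labelled as running. The other listed clock genes, such as Per1 and Nr1d1, overlapped between the 2 sham groups. The labels give no time of day, and its part in either difference was not tested.

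**Figure D3:**
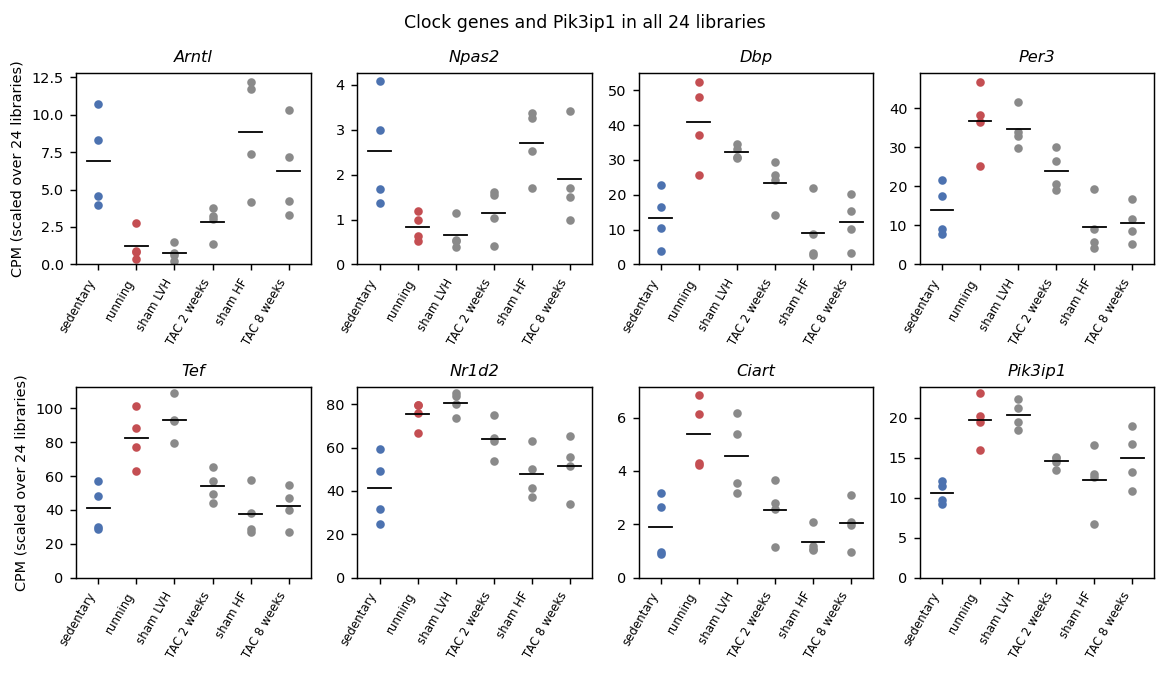
CPM scaled over all 24 libraries (linear axis from 0) for 7 clock genes and Pik3ip1 in the 6 groups, with each library as a point and the mean of 4 as a line. Arntl is low in running hearts (0.359 to 2.76 CPM) and in the sham group labelled LVH (0.221 to 1.49 CPM) and higher in sedentary hearts and the sham group labelled HF.

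The share of these sham differences among all genes can be set beside those with running. Of 13824 genes, 6.32% lay higher in the sham group of 2-week TAC than in that of 8-week TAC with no overlap, and 6.42% lay lower. Of the 207 genes higher in running hearts without overlap, 33 (15.9%) were higher and 1 (0.483%) lower in this sham comparison, which shares no library with the running comparison. Of the 203 lower genes, 38 (18.7%) were lower and 6 (2.96%) higher.

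Matrix genes lay lower in running hearts by small amounts. Of 39 tested genes 29 had negative log2 fold changes and the median was -0.16. At an unadjusted p under 0.05 there were 9 on the lower side (background 2.56%) and 0 on the higher side, and 6 had groups that did not overlap (background 1.47%). None had an edgeR adjusted p below 0.858. Libraries numbered 1 to 4 gave a median of -0.33 and libraries 5 to 8 one of 0.01, a difference that was not tested, and without Sedentary 1, the library with the highest mean level of these genes, the median was -0.05.

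Fbn1, the microfibril protein fibrillin-1, was at 79.2, 92.4, 79.9 and 98.7 CPM in Sedentary 1 to 4 and at 45.5, 68.2, 61.2 and 74.8 CPM in Running 1 to 4 (log2 fold change -0.49, SE 0.14). Col1a1, a chain of type I collagen, was at 42.9, 48.9, 45.5 and 49.3 CPM and at 27.9, 32.3, 38.3 and 41.9 CPM (-0.41, SE 0.12). Col6a3, a chain of type VI collagen, was at 35.8 to 39.7 CPM in sedentary and 25.8 to 32.1 CPM in running hearts (-0.34, SE 0.09). Each running library lay below each sedentary library in all 3 genes, and the same held for Loxl1, an enzyme that cross-links elastin (-0.38, SE 0.11), and for the basement membrane collagen Col15a1 (-0.35, SE 0.12).

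Genes of matrix proteins and proteases outside the matrix list were among the larger differences, and they were named for their own values. Those described next were lower, while Timp3, an inhibitor of matrix metalloproteases also outside the list, lay higher with overlap (log2 fold change 0.69). Col5a3, a chain of type V collagen, was at 12.4, 17.4, 17.3 and 13.0 CPM in Sedentary 1 to 4 and at 5.26, 5.80, 5.31 and 12.0 CPM in Running 1 to 4 (log2 fold change -1.09, SE 0.27, edgeR adjusted p = 0.858, DESeq2 adjusted p = 0.016). Running 4 stood close to the sedentary hearts, and without it the log2 fold change was -1.46 with an edgeR adjusted p of 0.0054. Mmp14, a metalloprotease of the cell surface, was at 4.44 to 6.27 CPM in sedentary and 3.23 to 3.99 CPM in running hearts (-0.61, SE 0.14). Adamts4, a protease that cuts proteoglycans, had 40, 36, 21 and 13 counts in Sedentary 1 to 4 and 4, 1, 1 and 14 in Running 1 to 4 (-2.40, SE 0.61), and -3.76 without Running 4.

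Markers of fibroblasts, the cells that make most of the matrix, were close to 0 as a list. Of 13 tested markers 2 were at an unadjusted p under 0.05, both on the lower side (background 2.56%). Both were collagens of the matrix list, and the median was -0.04. The summed level of the markers was 743.6 to 937.9 CPM in sedentary and 775.6 to 903.9 CPM in running hearts. Tcf21, a transcription factor of cardiac fibroblasts, had 1.81 to 2.85 CPM and 1.36 to 2.19 CPM (log2 fold change -0.44, SE 0.21). In whole hearts, fewer cells of a type and less RNA per cell cannot be told apart.

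Transcripts of the mitochondrial genome lay slightly higher in running hearts. All 15 tested genes had positive log2 fold changes, between 0.11 and 0.40, and the median was 0.18 (0.10 with library totals in place of TMM factors). Unadjusted p was under 0.05 in 9 of the 15, against 2.25% of all genes, and 5 had groups that did not overlap, against 1.5%. mt-Nd2, a subunit of complex I, was at 3541, 3193, 3251 and 3174 CPM in Sedentary 1 to 4 and at 4044, 3886, 3861 and 4653 CPM in Running 1 to 4 (log2 fold change 0.32, SE 0.09, edgeR adjusted p = 0.858). mt-Cytb, cytochrome b of complex III, was at 5278 to 5877 CPM and 6219 to 6582 CPM (0.23, SE 0.08), and mt-Nd4l, another subunit of complex I, at 461 to 563 CPM and 589 to 649 CPM (0.29, SE 0.09). In these 3 genes the groups did not overlap.

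Per 100 counts outside mitochondrial genes, messenger RNAs of the mitochondrial genome had 21.3 ± 0.635 counts in sedentary and 24.2 ± 0.728 in running hearts (mean ± SD, n = 4 each), again with no overlap. The exact two-sided permutation p was 0.0286, the smallest that 4 against 4 libraries can give, and 0.143 when adjusted over 5 such measures. As a share of all counts, which the mitochondrial ribosomal RNAs dominate, these messenger RNAs took 7.32% ± 0.475 and 7.88% ± 1.2 (exact permutation p = 0.429, adjusted p = 0.971 over 10 tests). The mitochondrial ribosomal RNAs took 58.3% ± 3.63 and 59.6% ± 5.98 of all counts. The part of ribosomal RNA depletion in these shares was not tested.

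Nuclear genes for energy metabolism showed no such shift. The 62 nuclear genes of the respiratory chain had a median log2 fold change of 0.00 and a range of -0.14 to 0.24, with 0 at an unadjusted p under 0.05 in either direction. The 28 genes of the tricarboxylic acid cycle and pyruvate dehydrogenase had a median of 0.01 and also 0 at that level. Of 36 genes of fatty acid uptake and oxidation 2 reached it, both lower (background 2.56%). They were Acot1, a thioesterase (-0.50, SE 0.20), and Plin5, a coat protein of lipid droplets (-0.37, SE 0.11). Plin5 was at 30.9 to 43.4 CPM in sedentary and 24.7 to 31.2 CPM in running hearts. The regulators of mitochondrial genes had 1 of 23 at an unadjusted p under 0.05, also lower (background 2.56%). This was Esrra, an orphan nuclear receptor (-0.28, SE 0.13). Ppargc1a, the coactivator PGC-1 alpha, was at 112, 46.6, 43.1 and 75.3 CPM in Sedentary 1 to 4 and at 99.9, 47.5, 45.1 and 69.6 CPM in Running 1 to 4. The spread within each group was wide and shared by both groups, and the log2 fold change was -0.09 (95% interval -1.01 to 0.84). In glycolysis, Pfkp, an isoform of phosphofructokinase, had -0.40 (SE 0.13). It was the only 1 of 30 genes at an unadjusted p under 0.05, near the 2.56% of all genes on the lower side.

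**Figure D4:**
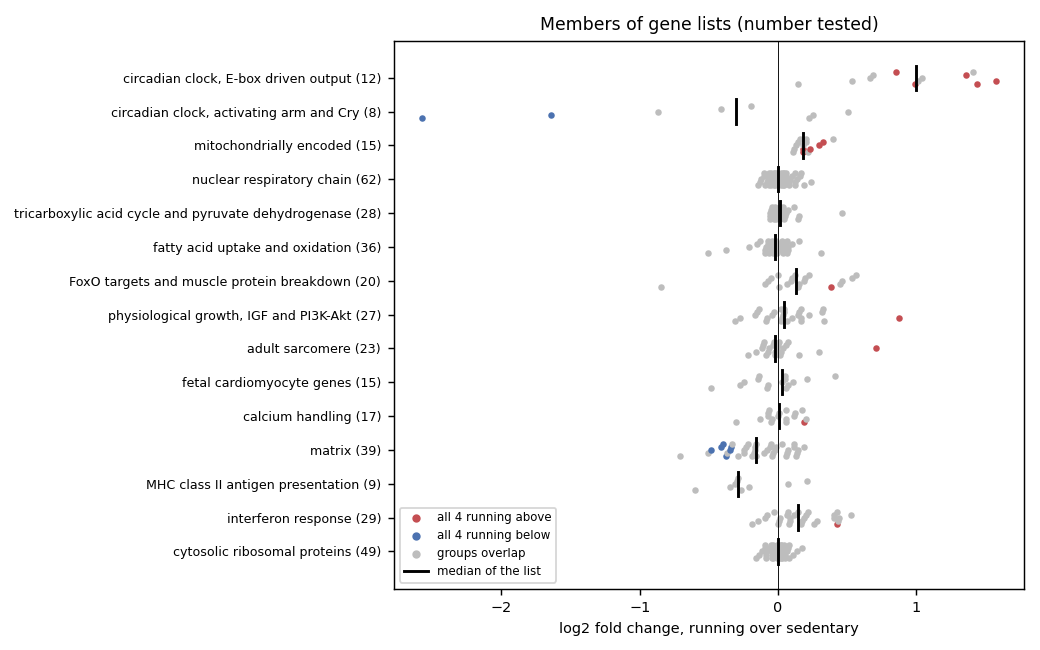
Log2 fold changes, running over sedentary, of the members of 15 gene lists, with the number tested in brackets, the median as a black line, and colour for members whose groups did not overlap. BMAL1-driven clock genes lie to the right of 0 with a median of 1.00, and the respiratory chain genes of the nucleus gather at 0.00.

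Genes of contraction were close to the sedentary level. Myh6 was at 10332, 10482, 11124 and 10687 CPM in Sedentary 1 to 4 and at 9217, 10531, 10817 and 10027 CPM in Running 1 to 4 (log2 fold change -0.07, 95% interval -0.25 to 0.10). Myh7, the slow myosin heavy chain of the fetal ventricle, had 57.9 to 99.5 CPM and 68.5 to 91.8 CPM (0.05, 95% interval -0.30 to 0.39), and -0.05 without TMM factors. Atp2a2, the calcium pump of the sarcoplasmic reticulum, had -0.00 (95% interval -0.26 to 0.26). These intervals exclude a 1.5-fold difference in either direction for all 3 genes. The list medians were -0.02 for 23 sarcomere genes, 0.00 for 17 genes of calcium handling and -0.02 for 23 potassium and sodium channels.

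The natriuretic peptides and skeletal actin, markers of the fetal program, were less tightly bounded. Nppa was at 31.4, 43.0, 21.9 and 35.4 CPM in Sedentary 1 to 4 and at 25.5, 27.5, 24.1 and 31.8 CPM in Running 1 to 4 (log2 fold change -0.27, 95% interval -0.66 to 0.11). Nppb was at 24.6 to 48.6 CPM and 19.4 to 62.2 CPM (-0.14, 95% interval -1.03 to 0.76). Acta1, alpha skeletal actin, ranged from 40.0 to 258 CPM in sedentary and from 65.4 to 132 CPM in running hearts (-0.49, 95% interval -1.84 to 0.87). The groups overlapped in each, and for Acta1 the value without Sedentary 2, the highest library, was 0.13.

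A few single genes of muscle had groups that did not overlap. Tcap, the titin cap protein telethonin, was at 193, 158, 101 and 175 CPM in Sedentary 1 to 4 and at 220, 303, 288 and 216 CPM in Running 1 to 4 (log2 fold change 0.71, SE 0.19, edgeR adjusted p = 0.871). Sedentary 3, low for Dbp, was also the lowest for Tcap. Adra1a, the alpha-1A adrenergic receptor, was at 12.5 to 14.9 CPM in sedentary and 15.6 to 18.6 CPM in running hearts (0.36, SE 0.10), while the alpha-1B receptor gene Adra1b, at 4.75 to 8.98 and 3.43 to 6.36 CPM, lay on the lower side with overlap (-0.56, SE 0.25). Trdn, triadin of the calcium release unit, had 48.7 to 53.4 CPM and 53.5 to 61.6 CPM (0.19, SE 0.09). Ankrd1, a stress-responsive protein of the sarcomere, had 128 to 213 CPM and 206 to 249 CPM with overlap (0.41, SE 0.14).

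Genes tied to this series by its title were close to the sedentary level or measured with a wide interval. Dchs2, a large cadherin, was at 0.754, 2.09, 1.4 and 0.659 CPM in Sedentary 1 to 4 and at 0.752, 0.919, 0.861 and 0.949 CPM in Running 1 to 4, from 115 counts in all sedentary and 86 in all running libraries. The running hearts lay within the sedentary range, and the log2 fold change was -0.48 (95% interval -1.21 to 0.25). Dchs1, its relative, had -0.14 (95% interval -0.39 to 0.11), Fat4, the cadherin that binds it, -0.26 (95% interval -0.54 to 0.01), and Yap1, the coactivator of the Hippo pathway, -0.11 (95% interval -0.31 to 0.09). Vgll3, a cofactor of TEAD proteins, was at 2.65, 2.13, 2.43 and 1.76 CPM in sedentary and 0.376, 0.990, 1.147 and 1.61 CPM in running hearts with no overlap (-1.13, SE 0.30, edgeR adjusted p = 0.858). Of 32 tested genes of the Hippo and cadherin list, 1 was higher at an unadjusted p under 0.05 (background 2.25%). On the lower side there was also 1, Vgll3 (background 2.56%).

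Cebpb and Cited4, transcription regulators known for opposite changes in exercise growth, overlapped between the groups. Cebpb was at 7.63, 4.34, 2.95 and 9.11 CPM in Sedentary 1 to 4 and at 11.4, 4.63, 5.92 and 6.64 CPM in Running 1 to 4 (log2 fold change 0.23, 95% interval -0.71 to 1.2). Cited4 was at 1.9, 3.83, 7.15 and 3.18 CPM and at 1.41, 3.75, 2.29 and 3.61 CPM (-0.50, 95% interval -1.51 to 0.52). The Cebpb interval holds a 2-fold rise but not a 2-fold fall. That of Cited4 holds a 2-fold fall but not a 1.5-fold rise. Within these bounds neither a change nor its absence could be shown at this spread. The long noncoding RNA lncExACT1 was not matched to an identifier and is not analysed here.

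Of the genes for vessels, Kdr, the main receptor of vascular endothelial growth factor, was at 113, 135, 127 and 129 CPM in Sedentary 1 to 4 and at 70, 86, 88.1 and 123 CPM in Running 1 to 4 (log2 fold change -0.45, SE 0.15, edgeR adjusted p = 0.924). Running 4 lay within the sedentary range and the other 3 below it. Without Running 4 the log2 fold change of Kdr was -0.63 (edgeR adjusted p = 0.124). Vegfa, its ligand, was at 89.2 to 115 CPM in sedentary hearts and at 74.9, 64.8, 64.9 and 128 CPM in Running 1 to 4 (-0.32, 95% interval -0.79 to 0.14). Here Running 4 lay above every sedentary library and the other 3 below them, and without Running 4 the value was -0.61 (edgeR adjusted p = 0.124). Edn1, the vasoconstrictor endothelin-1, was at 1.59 to 2.18 CPM and 0.717 to 1.57 CPM with no overlap (-0.65, SE 0.24). The 15 tested markers of endothelial cells had a median of 0.05, and their summed level was 1116 to 1244 CPM in sedentary and 1148 to 1253 CPM in running hearts.

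Immune genes gave single differences. Cx3cr1, the fractalkine receptor of monocytes and macrophages, was at 1.4, 2.51, 2.75 and 1.92 CPM in Sedentary 1 to 4 and at 0.376, 1.06, 0.610 and 0.854 CPM in Running 1 to 4, from 197 and 73 counts (log2 fold change -1.52, SE 0.30, edgeR adjusted p = 0.558, DESeq2 adjusted p = 0.0135). Its ligand Cx3cl1, fractalkine, was at 3.55 to 5.02 CPM and 2.65 to 3.23 CPM (-0.51, SE 0.15). The receptor and the ligand thus both had groups that did not overlap. Il33, an alarmin cytokine, was at 1.31, 0.894, 0.83 and 0.823 CPM in sedentary and 2.58, 1.84, 2.44 and 1.38 CPM in running hearts, the other direction and also without overlap (1.05, SE 0.25, edgeR adjusted p = 0.714).

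The other macrophage markers did not follow Cx3cr1. Of 18 tested markers it was the only 1 at an unadjusted p under 0.05 (background 2.56% on the lower side). The list median was 0.04, and the summed level was 135.9 to 158.2 CPM in sedentary and 132.8 to 160.6 CPM in running hearts. Adgre1, the macrophage antigen F4/80, was at 5.34 to 7.08 CPM and 4.84 to 5.55 CPM (log2 fold change -0.22, SE 0.12). Of 9 genes of antigen presentation by MHC class II, 3 were at an unadjusted p under 0.05 and lower (background 2.56%), and the median was -0.29. H2-Ab1, a chain of such a molecule, was at 7.85 to 9.03 CPM in sedentary and 5.56 to 8.69 CPM in running hearts (-0.31, SE 0.14), and Ciita, the regulator of the class, had -0.60 (SE 0.27), and the groups overlapped.

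Interferon response genes had a median of 0.15 over 29 tested genes, with 3 at an unadjusted p under 0.05 on the higher side (background 2.25%) and 0 on the lower (background 2.56%). Iigp1, a GTPase induced by interferon gamma, was at 16.8, 20.1, 17.6 and 18.3 CPM in Sedentary 1 to 4 and at 23.2, 21.5, 27.4 and 25.9 CPM in Running 1 to 4, the only 1 without overlap (log2 fold change 0.43, SE 0.10, edgeR adjusted p = 0.714). Ifit3, an antiviral protein, had 0.40 (SE 0.17). The list rests on part of the libraries: its median was -0.07 in libraries 1 to 4, 0.35 in libraries 5 to 8 and -0.00 without Running 4.

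Glucocorticoid response genes varied more within the groups than between them. Of 18 tested genes 0 were at an unadjusted p under 0.05, although the median was 0.35, and without Running 1 it was -0.13. Fkbp5, a chaperone of the glucocorticoid receptor and a standard target of it, was at 15.7, 3.49, 3.89 and 7.52 CPM in Sedentary 1 to 4 and at 33.1, 3.57, 5.38 and 8.78 CPM in Running 1 to 4. Zbtb16, another target, was at 132, 17.9, 16.8 and 91.2 CPM and at 151, 30.1, 61.1 and 89.4 CPM. Sedentary 1 and Running 1 were the highest of their groups in both genes, and both genes are among the leading genes of the first principal component. The order of the sedentary libraries was the same as for Per2 in that libraries 1 and 4 were high and 2 and 3 low.

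Lists of signalling and hormone response held a few members without overlap. Of 23 immediate early genes, induced within minutes of a stimulus, 1 was at an unadjusted p under 0.05 on the higher side (background 2.25%) and 2 on the lower (background 2.56%). The median was -0.04, and it turned with single libraries, to -0.43 without Running 1 and 0.23 without Sedentary 1. Dusp5, a phosphatase of the kinase ERK, was at 2.09, 2.13, 1.35 and 2.47 CPM in Sedentary 1 to 4 and at 1.32, 0.919, 0.394 and 1.09 CPM in Running 1 to 4 (log2 fold change -1.14, SE 0.30, edgeR adjusted p = 0.858), and Jund, a subunit of the factor AP-1, at 12.3 to 16.2 CPM and 9.22 to 12.0 CPM (-0.41, SE 0.11). Among 13 genes of thyroid hormone response, the receptor gene Thra was at 22.8 to 28.6 CPM in sedentary and 17.9 to 21.9 CPM in running hearts (-0.37, SE 0.11), and Dio2, the enzyme that activates the hormone, at 2.38 to 3.19 and 1.6 to 2.37 CPM (-0.47, SE 0.17). In these 4 genes each running library lay below each sedentary library. The other receptor gene, Thrb, lay on the higher side with overlap (0.28, SE 0.12), and the list median was -0.00. Gclm, a subunit of the enzyme that starts glutathione synthesis, was at 5.13 to 7.30 CPM and 7.21 to 10.3 CPM (0.53, SE 0.14). It was the 1 gene of 25 in the antioxidant list at an unadjusted p under 0.05 (background 2.25% on the higher side).

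Sedentary 1 to 4 and Running 1 to 4 carry the same replicate numbers, and hearts with the same number also have neighbouring library numbers. The labels do not say that a number marks a litter, cage or day. With the replicate number as a block, edgeR called 25 genes that rose (0.181% of those tested) and 22 that fell (0.159%), 47 in place of 0. Of the 47 genes, 17 had groups that did not overlap and 32 had an unadjusted p under 0.05 without the block. DESeq2 without the block called 5 of them: Pik3ip1, Gdap10, Fam124b, Tnfaip2 and Cx3cr1. The check of the numbers, given among the processing results, does not settle whether they mark pairs.

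Under the block Pik3ip1 rose by 0.88 on the log2 scale (edgeR adjusted p = 0.000506) and Gdap10 by 0.96 (adjusted p = 0.00182), while Cx3cr1 fell by 1.58 (adjusted p = 0.00643) and Tnfaip2 by 0.56 (adjusted p = 0.0108). Some of the other called genes overlapped between the groups but differed in the same direction between libraries of each number. Klhdc8a was at 4.61, 9.32, 8.08 and 8.07 CPM in Sedentary 1 to 4 and at 2.11, 5.34, 3.91 and 4.08 CPM in Running 1 to 4. It was lower in running for all 4 numbers (edgeR adjusted p = 0.00125 with the block). Inmt, an enzyme that methylates indole amines, was at 3.91, 2.13, 3.99 and 1.65 CPM and at 6.53, 5.41, 8.35 and 3.23 CPM, higher in all 4 (adjusted p = 0.00293, edgeR with the block). Timp3, an inhibitor of matrix metalloproteases, was at 153, 63.0, 60.2 and 97.1 CPM and at 230, 98.9, 134 and 141 CPM (adjusted p = 0.00325, edgeR with the block).

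Groups described above had members among the block calls. In the matrix list 3 of 39 tested genes fell (background 0.159%), Fbn1 (edgeR adjusted p = 0.0172 with the block) and Col1a1 (0.0436) among them. In the FoxO list 3 of 20 tested genes rose (background 0.181%). They were Klf15, a factor of muscle metabolism (edgeR adjusted p = 0.0268 with the block), Sesn1 (0.0408) and Foxo3 (0.0436). In the clock lists 0 of 20 genes were called with the block, where the smallest adjusted p was that of Clock (0.096, edgeR), and Arntl and Dbp had 0.502 and 0.65. Il33 (0.037), Dyrk2 (0.0406), Fam124b (0.0421), Cdh19 (0.0436), Kdr (0.0448) and Plin5 (0.0459) also passed in edgeR with the block.

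The TAC effects differed from the running effect for several of these groups. In a fit of all 24 libraries, the TAC effect at 2 weeks minus the running effect had an edgeR adjusted p under 0.05 in 2988 of 14735 genes (20.3%), and the TAC effect at 8 weeks minus the running effect in 1658 (11.3%). The running and TAC comparisons share no library. No running effect was called in this fit, and a called difference does not show that the 2 effects have opposite signs. Of the 39 matrix genes, 38 had a TAC effect above the running effect at 2 weeks and 35 at 8 weeks, and the list medians were 2.56, 1.43 and -0.16 for TAC at 2 weeks, TAC at 8 weeks and running. Fbn1 had log2 fold changes of 2.56, 1.4 and -0.49 in these 3 comparisons, with an edgeR adjusted p of the difference of 2.13e-07 at 2 weeks and 0.000193 at 8 weeks.

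Transcripts of the mitochondrial genome gave the opposite order, with a median of -0.67 at 2 weeks and -0.54 at 8 weeks of TAC against 0.18 for running. The difference passed in 15 of 15 genes at 2 weeks and 11 of 15 at 8 weeks, all lower in TAC. Over all genes the shares in either direction were 20.3% and 11.3%, which also stand beside the fatty acid and fetal counts below. For mt-Nd2 the edgeR adjusted p of the difference was 2.5e-06 and 8.57e-05. Fatty acid genes had medians of -0.99, -0.56 and -0.02, and 34 of 36 differed from running at 2 weeks and 13 at 8 weeks. Among fetal genes 10 of 15 and 9 of 15 were higher in TAC than the running effect: Nppa had log2 fold changes of 4.28 and 4.05 with TAC and -0.28 with running (edgeR adjusted p of the difference 9.38e-09 and 3.56e-08). Dchs2 had 2.16 and 1.48 with TAC and -0.48 with running (edgeR adjusted p of the difference 2.35e-05 and 0.00167).

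Single genes of receptors and growth factors differed too. Of the 27 genes of the PI3K and growth list the difference passed in 9 at 2 weeks (3 higher and 6 lower in TAC). At 8 weeks it passed in 4 (1 higher and 3 lower). Over all genes the shares in either direction were 20.3% and 11.3%, so the 8-week count lay near that of all genes. Adra1a had log2 fold changes of -1.40 at 2 weeks and -1.24 at 8 weeks of TAC and 0.35 with running (edgeR adjusted p of the difference 1.27e-06 and 1.4e-05). Cx3cr1 had 1.52, 1.03 and -1.51 (6.94e-06 and 0.000308 by edgeR), and Igf1 1.57, 0.96 and 0.17 (1.19e-05 and 0.0115 by edgeR). For the clock genes the difference at 2 weeks passed in 6 of 12 BMAL1-driven genes (20.3% of all genes). At 8 weeks it passed in 2, near the 11.3% of all genes, and the medians were -0.51, 0.13 and 1.00. These clock values, and those of Cx3cr1, lean on the level of each control group, given above. Cebpb and Cited4 did not pass either test (edgeR adjusted p of the difference 0.265 and 0.507 for Cebpb, 0.869 and 0.816 for Cited4).

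**Figure D5:**
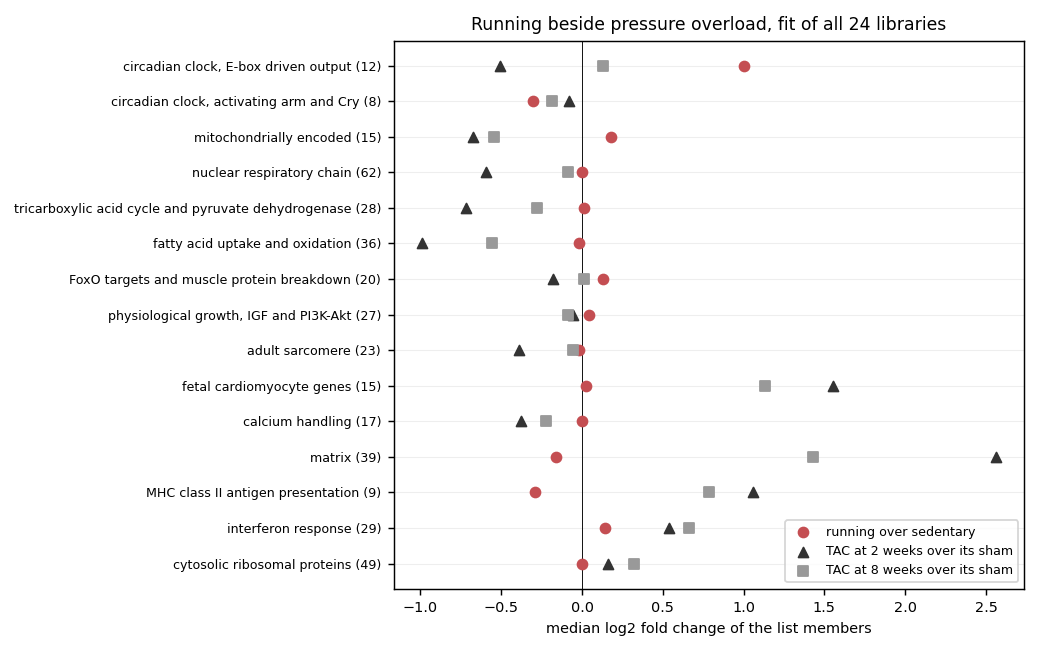
Median log2 fold change of the tested members of 15 lists for running over sedentary (red circles) and for TAC at 2 weeks (triangles) and 8 weeks (squares) over the matching sham group, from the fit of all 24 libraries. Matrix genes lie at 2.56 and 1.43 with TAC and at -0.16 with running.

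Markers of white blood cells other than macrophages were scarce. The lists of neutrophils, T and natural killer cells and B cells had 2, 1 and 1 members that passed the filter on low counts, and the thymus and lymph node list 0 of 7. The summed markers of red cells were 234.7 to 345 CPM in sedentary and 288.3 to 331.1 CPM in running hearts, those of skeletal muscle 411.5 to 759.3 and 443 to 579.2 CPM, those of adipocytes 102 to 162.1 and 118.5 to 164.3 CPM, and those of atrial muscle cells 264.1 to 311.3 and 258.9 to 326.5 CPM. These ranges overlapped. The summed markers of smooth muscle cells and pericytes did not, with 701.9 to 767.6 CPM in sedentary and 777.7 to 826 CPM in running hearts, although the median log2 fold change of the list was -0.07. The 12 markers of heart muscle cells had 44750 to 50340 CPM in sedentary and 45210 to 51140 CPM in running hearts. The 49 cytosolic ribosomal protein genes had a median log2 fold change of -0.00 and 0 at an unadjusted p under 0.05.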

How the data were processed

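The values are estimated counts, 1 per gene and library for all 24 libraries, which the authors made with Salmon after FastQC on the build mm9, per the submitters' processing notes. For tool versions, annotation and strand setting, nothing is given in the sources used here. Of 43432 gene identifiers, 42462 matched a symbol in GENCODE M21, and 1 row with no gene name and 0 counts was left out. Some counts above 1000000 are rounded in the file.

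Running and sedentary libraries (4 each) were compared in R 4.3.3 by edgeR 4.0.16 (low genes removed by filterByExpr, TMM, robust quasi-likelihood fit, two-sided F test, Benjamini-Hochberg over the 13824 genes tested), and genes were called at an adjusted p under 0.05. SE and 95% intervals come from the same fit. For shares of counts the test was an exact two-sided permutation test, which has 70 arrangements here. Differences from TAC were tested as contrasts in 1 fit of 24 libraries. DESeq2 1.42.0, limma-voom (limma 3.58.1), other scalings and filters, left-out libraries, a library-order term and a replicate block were tried. Depth limits precision, and gene-level intervals cover counting error and the spread between libraries.

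The genes always named, the 32 process lists, the 16 cell type lists (949 symbols, 2 unmatched) and the tests were chosen with earlier results of these data known, and lists are described by counts and medians only. Named genes were a fixed set of 15, the 8 largest differences per direction without overlap at a mean of at least 2 CPM, the 6 smallest p-values per direction, the members of lowest p (up to 4) in each described list, and up to 3 called genes per direction from alternatives. Not every such gene is described. Ryr2 and Tnnt2 are tissue markers, and the comparison of the sham groups was added after the data were seen.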

Additional observations from a re-analysis of the deposited data

Results flagged for a closer look

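Among the genes named, 216 groups of 4 libraries were examined for 1 library far from the other 3 (a gap, as a share of the range of the group, above Dixon's 95% critical value), and 8 groups (3.7%) held one. Chance gives about 1 in 20 groups. No explanation of these values was tested.

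Running 4 stood apart in 3 genes: Col5a3 was at 11.96 CPM there and at 5.261 to 5.796 CPM in the other running hearts, Vegfa was at 127.7 CPM against 64.82 to 74.92 CPM, and the kinase gene Dyrk2 was at 5.409 CPM against 6.275 to 6.435 CPM. For Col5a3 and Vegfa this library lay toward or beyond the sedentary hearts, and for Dyrk2 it lay farther from them. Running 1 was high for Foxo3 (66.04 CPM, others 55.58 to 57.23 CPM) and for Klf15 (29.17 CPM, others 16.23 to 16.53 CPM). Sedentary 1 was low for Nppb, the B-type natriuretic peptide (24.58 CPM, others 44.92 to 48.62 CPM), and high for Il33 (1.313 CPM, others 0.8234 to 0.8941 CPM). Sedentary 3 was high for Rel (4.455 CPM, others 3.747 to 3.842 CPM).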

How the results depend on the processing

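The count of called genes was 0 in the analysis as described and in 15 of 21 alternative settings. It was 47 with the replicate block, 9 with DESeq2, 2 without a filter on low counts, 2 in libraries numbered 5 to 8 alone and 1 with a library-order term, and with 1 library left out it ranged from 0 to 3, the 3 being reached without Running 4. Unadjusted p under 0.05 was found in 665 genes, and in 1272 with the block, 1075 without the filter, 1065 without Sedentary 1, 423 without Sedentary 3 and 240 in libraries numbered 1 to 4. The shared replicate numbers were checked by correlating the deviations of same-numbered libraries from their group means. The correlations were 0.397, 0.259, 0.0939 and 0.0412 for numbers 1 to 4. Each was positive, but they do not all exceed 0.1, and Sedentary 3 correlated better with Running 2 (0.219) than with Running 3. Single correlations of this kind cannot settle whether the numbers mark pairs. The calls of the block are no measure of a stronger effect.

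The log2 fold changes of some genes changed direction. Myh7 was at -0.02685 in libraries 1 to 4, at -0.05407 without TMM factors and at -0.05427 to 0.2184 with a library left out. Acta1 was at 0.08422 in libraries 5 to 8 and at -0.7864 to 0.131 with a library left out. Atp2a2 was at 0.1797 in libraries 1 to 4, 0.00192 with DESeq2's size factors, 0.001859 without the filter, 0.001922 in DESeq2 and -0.1226 to 0.07052 with a library left out. Nr1d1 was at -0.351 in libraries 1 to 4 and at -0.106 to 0.3317 with a library left out. The left-out ranges also crossed 0 for Nppb (-0.4818 to 0.08201), Cebpb (-0.08079 to 0.4761), Ppargc1a (-0.3629 to 0.2528), Fkbp5 (-0.4297 to 1.353) and Zbtb16 (-0.1049 to 0.986). The share of the 10 largest genes, running minus sedentary, was -0.08525 percentage points without mitochondrial genes. In each case the cause was not tested.

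Of 1947 values of named genes, 1881 kept their direction and side of the threshold, 40 passed it only in the alternative (25 with the block, 9 with DESeq2, 3 without Running 4, 2 without the filter, 1 with the library-order term) and 26 reversed. Of 902 list medians 31 moved, and with 1 library left out the median took both signs in 24 of 43 lists. Without TMM factors the median of all genes was -0.073. Depth limits the weakly expressed genes, such as Fam124b, Adamts4 and Dchs2, most.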
